A study of Mus musculus with 18 samples.

Results

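MurSatRep1 is a family of repeat loci in the mouse genome that the repeat annotation places in the class Unknown, apart from the families of the class Satellite. The members were all rows of the rRNA-depleted count table whose family is MurSatRep1, which gave 2600 loci of the 3725827 repeat loci listed, beside 24100 genes. C3H/10T1/2 cells, a mouse mesenchymal progenitor cell (MPC) line, were compared after knockout (KO) of *Atrx* with Cas9. The 9 rRNA-depleted libraries fall into 3 groups of 3. WT cells received the Cas9 vector without a guide, sg5 is clone G7 made with sgRNA 5, and sg6 is clone B10 made with sgRNA 6. All cells were undifferentiated and in normal culture medium. Each group is 1 line and each sgRNA is represented by 1 clone, so n = 3 counts libraries of a line and the p-values measure the spread between those libraries, which may be technical.

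ATRX is a chromatin remodeller that works with the histone chaperone DAXX to place a replacement variant of histone H3 in repeat-rich heterochromatin, including telomeres, satellites and endogenous retroviruses. This chromatin carries methylated lysine on the tail of histone H3, set by enzymes such as SETDB1 with its partner TRIM28 and read by the HP1 proteins and the HUSH complex. Loss of ATRX is known to change chromatin at such repeats in several cell types. A locus is named here by the annotation's own label, such as MurSatRep1_dup282, shortened to dup282. These names carry no genome coordinates, so RNA that starts at a repeat and RNA of a gene that runs through it cannot be told apart. Reads with several alignments are shared out among near-identical copies, so a value of 1 locus can include RNA of another.

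Library totals ran from 20135336 to 33187136 counts. Repeat loci took 10.4% to 12.3% of the counts in every library except WT replicate 3, where they took 15.5%. The summed level and the numbers of loci called against WT are given without this library as well. Ratios of the other families, medians over loci and sums of bins include it and are not given without it. *Atrx*, on chromosome X from 105797615 to 105929372 in GRCm38.p6, measured 213, 185 and 222 counts per 1000000 (CPM, scaled by TMM library sizes) in WT, 107, 58.4 and 71.0 CPM in sg5 and 96.6, 72.7 and 80.3 CPM in sg6. The log2 fold change was -1.39 ± 0.21 (SE) in sg5 (adjusted p = 0.00138) and -1.31 ± 0.20 in sg6 (adjusted p = 0.00227; edgeR quasi-likelihood test). All 8 mesenchymal markers were tested, and their summed level lay between 3496 and 4403 CPM in WT, between 5081 and 7267 CPM in sg5 and between 5359 and 7037 CPM in sg6. Most of this sum was *Vim*, which did not pass in either clone (2494 CPM in WT, against 4341 in sg5 and 4252 in sg6, adjusted p = 0.0588 and 0.0873, edgeR). *Eng*, a surface receptor of mesenchymal cells, was higher in both clones (log2 fold change 2.07, adjusted p = 0.00228 and 1.32, adjusted p = 0.045, edgeR). *Thy1*, a surface marker of mesenchymal cells, was near 0 in WT at 0.298 ± 0.115 CPM (SD, n = 3) and in sg5 at 0.096 ± 0.102, but reached 27.0 ± 5.04 in sg6. *Pdgfra* was lower without passing, with a log2 fold change of -0.16 in sg5 and -0.64 in sg6 (adjusted p = 0.701 and 0.058, edgeR). The value of *Cd44* was -0.28 in sg5 and 0.20 in sg6, which did not pass. *Col1a1*, *Col1a2* and *Pdgfrb* had values above 0 in both clones and did not pass. In sg5, *Col1a1* ran from 82.2 to 742 CPM. Of 5 markers of other cell types only the epithelial gene *Cdh1* was tested, and their summed level lay between 1.81 and 3.15 CPM in WT, between 0.268 and 1.63 CPM in sg5 and between 0.322 and 0.579 CPM in sg6. *Cdh1* was lower in both clones, at a mean of 2.18 CPM in WT, against 0.147 in sg5 and 0.235 in sg6 (log2 fold change -3.82, adjusted p = 0.00274 and -3.18, adjusted p = 0.00693, edgeR), and the upper end in sg5 came mostly from 37 counts of the fat cell gene *Adipoq* in sg5 replicate 1. The leukocyte marker *Ptprc* and the epithelial marker *Epcam* were at 0 in WT. In bulk RNA, fewer cells of a type and less RNA per cell cannot be told apart, and the part of these marker differences in the repeat values was not tested.

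Most MurSatRep1 loci had no count at this depth. A total of 892 loci (34.3%) had at least 1 count in any library and 1708 (65.7%) had none, against 24.9% of all repeat loci with a count. Only 230 loci had a count in each of the 9 libraries. A locus at 0 is below 3 counts in a library, which is 0.0904 to 0.149 CPM of plain library totals, depending on the library.

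The number of loci detected was 509, 545 and 600 in WT, 487, 427 and 506 in sg5 and 464, 491 and 462 in sg6. The lowest WT value was above every KO value, and WT replicate 3, the deepest library, was the highest. After all libraries were thinned to 20135336 counts, the numbers were 490, 509 and 553 in WT, 455, 427 and 479 in sg5 and 443, 451 and 447 in sg6. The WT libraries then still lay above both clones, and no test was made on these numbers.

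The family's RNA came from few loci. Of 152040 MurSatRep1 counts over all libraries, 38 loci held 50% and 178 held 90%. The most abundant locus, dup209, held 4.82% and the 12 most abundant held 26.7%. After removal of features with low counts, 249 loci (9.58% of those listed) were tested, and they held 94.8% of the counts. The other 2351 were not tested. Of these, 643 had at least 1 count, and none had more than 69 counts over all libraries. The mean level of a tested MurSatRep1 locus ran from 0.170 to 30.8 CPM with a median of 1.26 CPM, above the median of 0.439 CPM over all tested repeat loci. These levels are not corrected for the length of a locus.

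Summed over all 2600 loci, MurSatRep1 RNA measured 692, 587 and 695 CPM in WT, 713, 721 and 654 CPM in sg5 and 574, 535 and 582 CPM in sg6. The means were 658 ± 61.5 CPM in WT, against 696 ± 36.4 in sg5 and 564 ± 25.4 in sg6 (SD, n = 3). The sg5 libraries overlapped those of WT, with a log2 ratio of means of 0.08 that turned to -0.044 in CPM of plain library totals. Every sg6 library lay below every WT library, with a log2 ratio of -0.22, but by as little as 587 against 582 CPM. Every sg5 library lay above every sg6 library, with a log2 ratio of 0.30. These sums are given as a description, without a test.

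**Figure D1:**
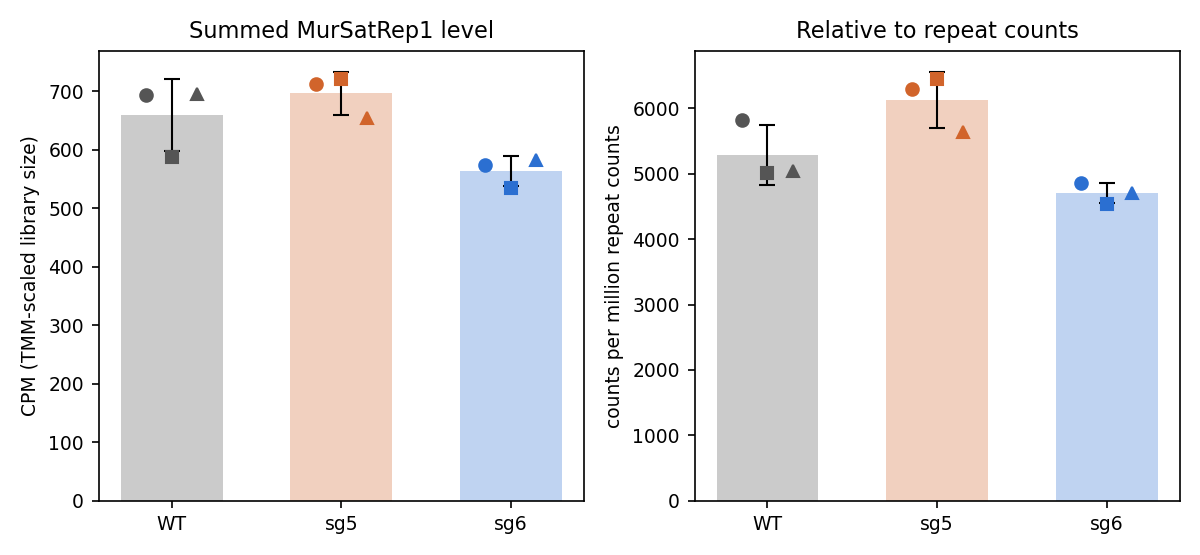
Summed MurSatRep1 RNA in each rRNA-depleted library, as CPM of TMM-scaled library sizes on the left and per 1000000 counts on repeat loci on the right. Bars are means of 3 libraries, error bars are SD, and the circle, square and triangle are replicates 1, 2 and 3. All sg6 points, at 535 to 582 CPM, lie below all sg5 points, at 654 to 721 CPM, while sg5 and WT overlap.

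The separation of sg6 from WT depended on few loci. Without dup209 the sg6 libraries reached 563 CPM and the lowest WT library was at 561, so the groups overlapped. They also overlapped when the sum was limited to the 249 tested loci or left out the 31 loci that passed a test in any comparison, where the log2 ratio was -0.11. Without WT replicate 3 the log2 ratio was 0.12 for sg5 and -0.18 for sg6. The clones stayed apart on another scale. Per 1000000 counts on repeat loci, sg5 measured 6295, 6443 and 5639, sg6 measured 4855, 4543 and 4712, and WT measured 5821, 5008 and 5040, overlapping sg5 and lying above sg6. On that scale the log2 ratio of sg5 to sg6 was 0.38.

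Other repeat families put these ratios in scale. Among the 40 families with at least 1000 counts, the median log2 ratio was -0.13 for sg5 against WT, -0.13 for sg6 against WT and 0.00 for sg5 against sg6. The ratios of the other families against WT include WT replicate 3 and are not given without it. In sg5 against WT, 36 of these families had a lower ratio than MurSatRep1 and 3 had a higher one, while 2.5% of the 40 had every sg5 library above WT and 2.5% had every one below. In sg5 against sg6 none of the other 39 families had a higher ratio than MurSatRep1, and 17.5% of the 40 had every sg5 library above every sg6 library, while 5% had every sg5 library below. In sg6 against WT, 35 of the other families had a higher ratio than MurSatRep1 and 4 a lower one, and 10% of the 40 had every sg6 library below every WT library.

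The family named Satellite, the annotation's main satellite family with 36865 loci listed, measured 495 ± 46.2 CPM in WT, against 454 ± 6.99 in sg5 and 426 ± 17.0 in sg6. Its sg5 libraries overlapped those of WT (log2 ratio -0.13) and its sg6 libraries lay below them (log2 ratio -0.22). The log2 ratio of sg5 to sg6 was 0.09 for Satellite, with no overlap, against 0.30 for MurSatRep1. The other satellite family listed, centr, has 4 loci, all at 0. The families of the class Unknown with the next most counts had far lower sums. YREP_Mm measured 19.4 ± 3.57 CPM in WT, against 17.7 ± 2.84 in sg5 and 17.4 ± 0.345 in sg6. Y-chromosome measured 13.1 ± 2.65 CPM in WT, against 13 ± 0.941 in sg5 and 12.3 ± 1.03 in sg6. UCON4 measured 8.18 ± 1.29 CPM in WT, against 11 ± 0.824 in sg5 and 9.14 ± 0.330 in sg6. Its log2 ratio of 0.42 was the highest of the 40 families in sg5 against WT. The log2 ratio of sg5 to sg6 for UCON4 was 0.26, with no overlap, near the 0.30 of MurSatRep1. The sums of UCON8, UCON28a and UCON6 were below those of UCON4.

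Single loci moved in both directions while the sum of the family stayed near WT in sg5. In sg5, 23 of the 249 tested loci (9.24%) passed the test, 11 higher and 12 lower, where 3.88% of all 56086 features (1.82% higher and 2.06% lower) and 1.75% of all 42783 repeat loci passed. Of these, 10 of the higher and 11 of the lower loci had a log2 fold change beyond 1. In sg6, 18 loci (7.23%) passed, 3 higher and 15 lower, where 2.89% of all features (1.18% higher and 1.72% lower) and 1.44% of repeat loci passed. Of the genes tested, 10.7% passed in sg5 and 7.58% in sg6. Of 139 MurSatRep1 loci with at least 10 counts in every library, 3.60% passed in sg5 and 2.88% in sg6 in this fit. Of 7739 repeat loci at that level, 1.81% and 1.07% passed. Without WT replicate 3, of 259 loci tested 12 passed in sg5 (5 higher and 7 lower) and 11 in sg6, all lower. The shares of all features were then 1.74% and 1.28%. Without WT replicate 1 the numbers were 14 and 12 of 266 tested, where 2.25% and 1.54% of all features passed. Without WT replicate 2 they were 15 and 13 of 260, where 1.76% and 1.62% passed. Without sg5 replicate 2 or 3, 15 loci passed in sg5, of 273 and 271 tested, where 1.96% and 2.50% of all features passed.

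Over all 249 tested loci, the median log2 fold change was 0.07 in sg5, against -0.12 over all repeat loci tested and -0.06 over all features, and it turned to -0.01 when the scaling used genes alone. It was -0.15 in sg6, against -0.08 and -0.04. In sg5, 136 loci had a fitted value above 0 and 113 below 0, and in sg6 these numbers were 97 and 152. Of the 249 loci, every sg5 library was above every WT library at 37 and below at 31, where 10.5% and 12.6% of all features did so. The share of loci below WT in sg5 was thus close to that of all features. Every sg6 library was above every WT library at 14 loci and below at 49, where the shares of all features were 8.74% and 10.6%.

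**Figure D2:**
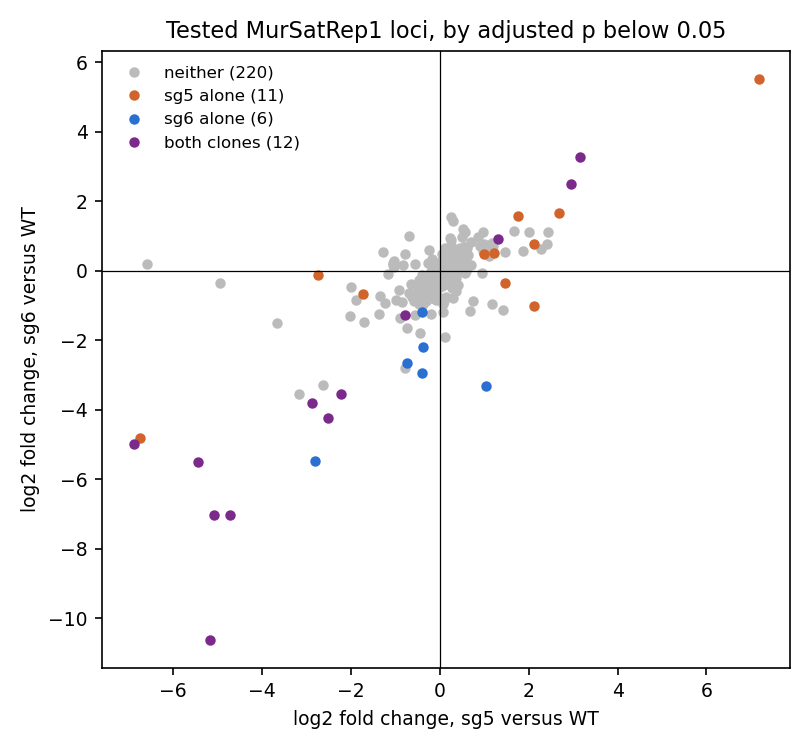
Log2 fold change of each tested MurSatRep1 locus in sg6 against WT (vertical) and in sg5 against WT (horizontal), from the edgeR fit. Both axes share the WT libraries. Points mark the 12 loci that passed in both clones (9 lower and 3 higher), 11 in sg5 alone and 6 in sg6 alone, and the most extreme points include groups at 0 counts, whose fitted value depends on the prior count.

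Both comparisons share the WT libraries, and 12 loci passed in both clones, all in the same direction in both: 9 lower and 3 higher. Over all features, 1.16% were called lower and 0.729% higher in both clones, and over repeat loci the shares were 0.615% and 0.236%. No MurSatRep1 locus was called in opposite directions. At each of the 9 lower loci, all 6 KO libraries were below the lowest WT library. These loci were chosen by tests on the same libraries, so this separation is a description only. Without WT replicate 3, 6 of these 12 loci were called in both clones, all lower. The number was 5 without WT replicate 1, and 7 without WT replicate 2, sg5 replicate 2 or sg5 replicate 3.

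The lowest p-values in both clones were at dup282 and dup267. In WT, dup282 measured 14.8, 10.9 and 17.8 CPM, which places it among the better expressed loci of the family. It measured 0.370, 0.803 and 0.520 CPM in sg5 and 0.290, 0.036 and 0 CPM in sg6. Its log2 fold change was -4.71 ± 0.48 (SE) in sg5 (adjusted p = 7.14e-05) and -7.04 ± 0.58 in sg6 (adjusted p = 1.31e-05, edgeR). The counts behind these values were 1328 over the WT libraries, 39 over sg5 and 8 over sg6. Of the 8 counts, 7 were in sg6 replicate 1, and without it the fitted value in sg6 was -9.22.

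At dup267, the WT libraries measured 7.36, 6.16 and 8.83 CPM. The sg5 libraries measured 0.185, 0.0535 and 0.334 CPM, and all 3 sg6 libraries were at 0. Little RNA of this locus was left in sg5 and none was detected in sg6. The log2 fold change in sg5 was -5.17 ± 0.44 (adjusted p = 5.18e-05, edgeR), and -5.78 without sg5 replicate 3. In sg6 the locus was at least 62.5-fold lower than in WT, taking 3 counts in each library as the limit (adjusted p = 1.04e-05, edgeR).

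Further loci with less RNA in WT were also lower in both clones. WT measured 3.79, 2.37 and 4.07 CPM at dup138, sg5 0.924, 0.749 and 0.520, and sg6 0.290, 0.322 and 0.253. On the log2 scale dup138 changed by -2.22 ± 0.33 in sg5 (adjusted p = 0.00152) and -3.54 ± 0.37 in sg6 (adjusted p = 9.29e-05, edgeR). In all 3 groups the libraries stood apart from each other in the order WT, sg5, sg6, although the difference between the clones did not pass the test (adjusted p = 0.299, edgeR).

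WT measured 2.69, 1.63 and 2.57 CPM at dup246, sg5 0.259, 0.428 and 0.260, and sg6 0.166, 0.072 and 0.253. On the log2 scale dup246 changed by -2.88 ± 0.42 in sg5 (adjusted p = 0.00113) and -3.81 ± 0.45 in sg6 (adjusted p = 0.00024, edgeR). At dup137, WT measured 2.78, 1.63 and 1.98 CPM, sg5 0.259, 0.589 and 0.297, and sg6 0.207, 0 and 0.126. Here too both clones lay below WT, by -2.51 ± 0.52 on the log2 scale in sg5 (adjusted p = 0.0139) and -4.25 ± 0.61 in sg6 (adjusted p = 0.00111, edgeR). The sg5 call at dup137 was lost without WT replicate 1 (adjusted p = 0.0656) or sg5 replicate 3 (adjusted p = 0.054, edgeR), and the sg6 value was -5.05 without sg6 replicate 1 and -3.61 without sg6 replicate 2.

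Few reads remained at dup269, with 127 counts in WT and 2 in each clone. Its WT libraries measured 1.30, 1.20 and 1.66 CPM, and no KO library exceeded 0.074 CPM. The ratio of WT to sg5 was 51.6 with an exact 95% interval from 14.0 to 431, and the ratio of WT to sg6 was 53.9 with an interval from 14.6 to 450, both covering counting error only. The adjusted p was 0.000481 in sg5 and 0.000469 in sg6 (edgeR).

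A sparse locus, dup2103, had WT libraries at 0.505, 0.496 and 0.829 CPM. It had 1 count over the sg5 libraries and none over the sg6 libraries. The ratio of WT to sg5 was 46.3 with an interval from 7.99 to 1862, and sg6 was at least 5.11-fold lower (adjusted p = 0.0217 and 0.0121, edgeR). These calls at dup2103 held in 3 of the 9 fits that left out a library in sg5 and 6 of 9 in sg6, both were lost without any 1 of the WT libraries, and the adjusted p reached 0.221 and 0.175 (edgeR). A further locus that was lower in both clones, dup132, falls outside the 20 loci of lowest p and was added after its values were seen. It had 9, 14 and 29 counts in the WT libraries, none in sg5 and 1 in sg6, and sg5 was at least 4.31-fold lower (adjusted p = 0.0165 in sg5 and 0.0341 in sg6, edgeR).

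The change at dup239 was smaller and came in a locus with more RNA. WT measured 10.8, 10.3 and 10.3 CPM, sg5 6.39, 6.48 and 5.46 and sg6 3.97, 4.22 and 4.71. The 3 groups did not overlap. Against WT, its log2 fold change was -0.78 ± 0.19 in sg5 (adjusted p = 0.0336) and -1.28 ± 0.19 in sg6 (adjusted p = 0.0015, edgeR). In sg5 this call was lost in each of the 9 fits that left out a library, with adjusted p from 0.0119 to 0.681 over all alternatives, while in sg6 it held in all 9.

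**Figure D3:**
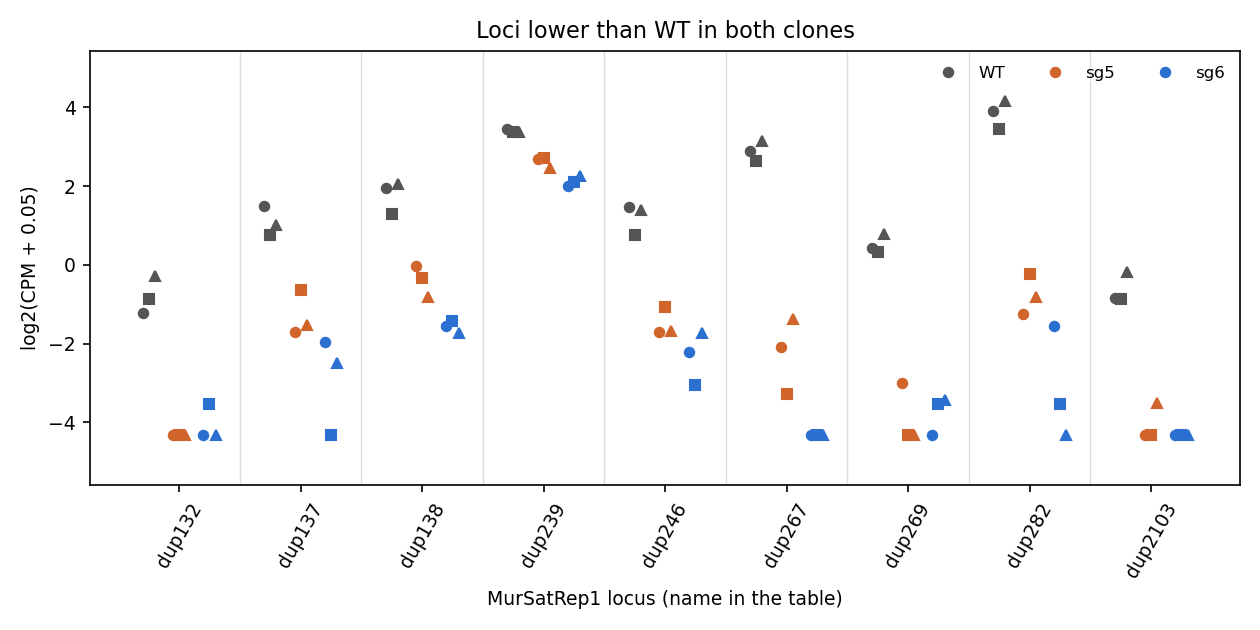
Level of the 9 loci called lower in both clones, in log2(CPM + 0.05), for each library of WT (grey), sg5 (orange) and sg6 (blue), with replicates 1, 2 and 3 as circle, square and triangle. Points on the lowest line are libraries at 0 counts. At each locus, chosen by tests on these libraries, all 6 KO libraries lie below the 3 WT libraries.

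Another 3 loci were called higher in both clones. Without WT replicate 1 or WT replicate 3, or with p-values adjusted over repeat loci alone, the number called higher in both clones was 0, and without WT replicate 2, sg5 replicate 2 or sg6 replicate 2 it was 1. At dup1610, WT measured 2.19, 2.34 and 2.51 CPM, sg5 5.14, 6.74 and 5.57 and sg6 3.93, 4.94 and 4.38. No library of 1 group reached into the range of another. Its log2 fold change was 1.30 ± 0.23 in sg5 (adjusted p = 0.00472) and 0.91 ± 0.23 in sg6 (adjusted p = 0.0498, edgeR). The sg6 call at dup1610 held in 1 of the 9 fits that left out a library, and its adjusted p ran from 0.0069 to 0.539 over all alternatives.

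WT measured 0.042, 0.177 and 0.214 CPM at dup1325, sg5 0.776, 1.5 and 1.41, and sg6 0.662, 1.47 and 0.463. This was a log2 fold change of 2.96 ± 0.57 in sg5 (adjusted p = 0.00902) and 2.48 ± 0.58 in sg6 (adjusted p = 0.0327, edgeR). All KO libraries were above WT, and the clones overlapped. The sg6 call at dup1325 held in 5 of the 9 fits that left out a library, being lost without any 1 of the WT libraries or sg6 replicate 2, with adjusted p from 0.00421 to 0.151 over all alternatives (edgeR and DESeq2). The third, dup1662, also falls outside the 20 loci of lowest p. It had 8 counts over WT, 60 over sg5 and 70 over sg6 (log2 fold change 3.16 and 3.26, adjusted p = 0.0266 and 0.0248, edgeR).

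Of the 17 loci that passed against WT in 1 clone alone, 5 also passed between the clones, and for the other 12 a difference between the clones was not shown. In sg6 alone 6 loci passed, all lower. The lowest p among them was at dup272, with 7.36, 6.52 and 6.34 CPM in WT, 5.36, 5.30 and 5.01 in sg5 and 1.49, 1.75 and 1.14 in sg6. The sg5 libraries were all below WT, but the log2 fold change of -0.37 ± 0.22 did not pass (adjusted p = 0.447), whereas that of sg6 was -2.20 ± 0.24 (adjusted p = 0.000134, edgeR). The difference between the clones was itself tested, with a log2 fold change of 1.83 ± 0.24 (adjusted p = 0.00251, edgeR).

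At dup147, WT measured 2.23, 2.02 and 2.62 CPM, sg5 1.66, 1.55 and 0.928 and sg6 0.538, 0.143 and 0.421. Its log2 fold change was -2.65 ± 0.42 in sg6 (adjusted p = 0.0026) and -0.74 ± 0.37 in sg5 (adjusted p = 0.34, edgeR). The difference between the clones did not pass (adjusted p = 0.0925, edgeR).

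At dup710, the WT libraries held 19, 14 and 41 counts, the sg5 libraries 6, 2 and 0 and the sg6 libraries 0, 0 and 1. The ratio of WT to sg6 was 62.8 with an exact 95% interval from 10.9 to 2513 (adjusted p = 0.0106, edgeR). This call at dup710 was lost without WT replicate 3 (adjusted p = 0.152, edgeR). All KO libraries were low, and the sg5 value missed the threshold (adjusted p = 0.0692, edgeR). The remaining loci of this group are dup279, dup479 and dup1634. Of these, dup279 is outside the 20 of lowest p, with a log2 fold change of -1.20 in sg6 (adjusted p = 0.0464, edgeR).

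In sg5 alone 11 loci passed, 8 higher and 3 lower. Among the higher loci, dup1770 measured 0.126, 0.071 and 0.107 CPM in WT, 0.665, 0.482 and 0.854 in sg5 and 0.372, 0.358 and 0.253 in sg6. Both clones were above WT and sg5 above sg6, and the log2 fold change was 2.68 ± 0.53 in sg5 (adjusted p = 0.0104) and 1.66 ± 0.56 in sg6 (adjusted p = 0.177, edgeR). The clones did not pass against each other (adjusted p = 0.613, edgeR). The sg5 call at dup1770 was lost without WT replicate 2, WT replicate 3 or sg5 replicate 3, with adjusted p from 0.00557 to 0.0724 over all alternatives (edgeR and DESeq2). The better expressed loci dup1510 and dup184 changed by 0.99 ± 0.20 and 1.23 ± 0.25 on the log2 scale in sg5 (adjusted p = 0.014 and 0.0125, edgeR).

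At dup1540 no count was seen in WT, while the sg5 libraries held 19, 19 and 9 counts and the sg6 libraries 11, 4 and 1. Its level in sg5 was at least 6.57-fold higher than in WT (adjusted p = 0.0127, edgeR). In sg6 it was at least 2.05-fold higher than in WT, which did not pass (adjusted p = 0.0894, edgeR). In sg5, dup1557 and dup1784 were also higher. The 3 loci lower in sg5 alone were dup253, dup516 and dup1999. These include dup253, with 44 counts over WT, none over sg5 and 1 over sg6, whose value in sg6 was close to the threshold (adjusted p = 0.0238 in sg5 and 0.0521 in sg6, edgeR). The loci dup184, dup253, dup516, dup1510, dup1540, dup1557, dup1784 and dup1999 are outside the 20 of lowest p and are named after their values were seen.

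The direct comparison of the clones called 7 loci (2.81%), all higher in sg5 than in sg6, where 0.49% of all features (0.216% higher and 0.275% lower) and 0.154% of repeat loci passed. At an unadjusted p below 0.05, 34 loci were higher in sg5 and 10 were lower, together 17.7% of the 249, against 7.98% of all features (edgeR). Of the genes tested, 13.5% were at that unadjusted p and 1.57% passed after adjustment (edgeR). Of loci with at least 10 counts in every library, this fit called 3 of 139 MurSatRep1 loci and 14 of 7739 repeat loci. With no filter on low counts 11 loci were called higher and 3 lower, where 0.0674% of all features passed. Without sg6 replicate 2 the numbers were 5 and 1, where 0.275% passed. The median log2 fold change of sg5 against sg6 over the 249 loci was 0.24, against -0.03 over repeat loci and -0.00 over all features. A total of 169 loci had a fitted value above 0 and 80 below 0. Every sg5 library was above every sg6 library at 49 loci and below at 9, where 6.46% and 7.28% of all features did so. Besides dup272, the 7 loci were dup209, dup479, dup1631, dup1634, dup1636 and dup1637.

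Among them, 4 have numbers from 1631 to 1637. At dup1637, WT measured 0.337, 0.673 and 0.669 CPM, sg5 3.07, 1.34 and 3.01 and sg6 0.331, 0.215 and 0.295. Against WT, dup1637 changed by 2.12 ± 0.40 in sg5 on the log2 scale (adjusted p = 0.0071) and by -1.02 ± 0.46 in sg6 (adjusted p = 0.386, edgeR). All sg5 libraries were above WT and all sg6 libraries were below it, the nearest by 0.331 against 0.337 CPM. Between the clones the log2 fold change was 3.14 ± 0.44 (adjusted p = 0.00385, edgeR).

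At dup1636, WT measured 1.72, 2.09 and 2.38 CPM, sg5 5.47, 6.80 and 5.01 and sg6 1.41, 1.68 and 1.77. The sg5 libraries stood above all others, and sg6 overlapped WT. The log2 fold change of sg5 was 1.47 ± 0.25 against WT (adjusted p = 0.00373) and 1.82 ± 0.26 against sg6 (adjusted p = 0.00396, edgeR).

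In contrast to these, dup1634 passed against WT in sg6. WT measured 1.51, 0.496 and 0.909 CPM, sg5 1.74, 2.30 and 1.93 and sg6 0, 0.107 and 0.168. Its log2 fold change was -3.32 ± 0.63 in sg6 (adjusted p = 0.00972) and 1.04 ± 0.45 in sg5 (adjusted p = 0.264, edgeR). The clones differed by 4.36 ± 0.61 on the log2 scale (adjusted p = 0.004, edgeR), the largest of the 7 differences. Without sg6 replicate 3, these values of dup1634 were -3.93 in sg6 against WT and 5.0 between the clones.

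The last of this run, dup1631, did not pass against WT in either clone. WT measured 1.22, 0.779 and 1.07 CPM, sg5 2.99, 1.71 and 2.15 and sg6 0.455, 0.286 and 0.842. All sg5 libraries were above WT and sg6 overlapped WT, and the clones differed by 2.13 ± 0.40 on the log2 scale (adjusted p = 0.0318, edgeR). This call held in 3 of the 9 fits that left out a library.

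At dup479, WT measured 1.81, 1.31 and 1.02 CPM, sg5 0.481, 1.5 and 1.19 and sg6 0.207, 0.143 and 0.168. All sg6 libraries were below the others, with a log2 fold change of -2.96 ± 0.50 against WT (adjusted p = 0.00383, edgeR). The clones differed by 2.57 ± 0.51 (adjusted p = 0.041, edgeR), a call that held in 1 of the 9 fits that left out a library.

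**Figure D4:**
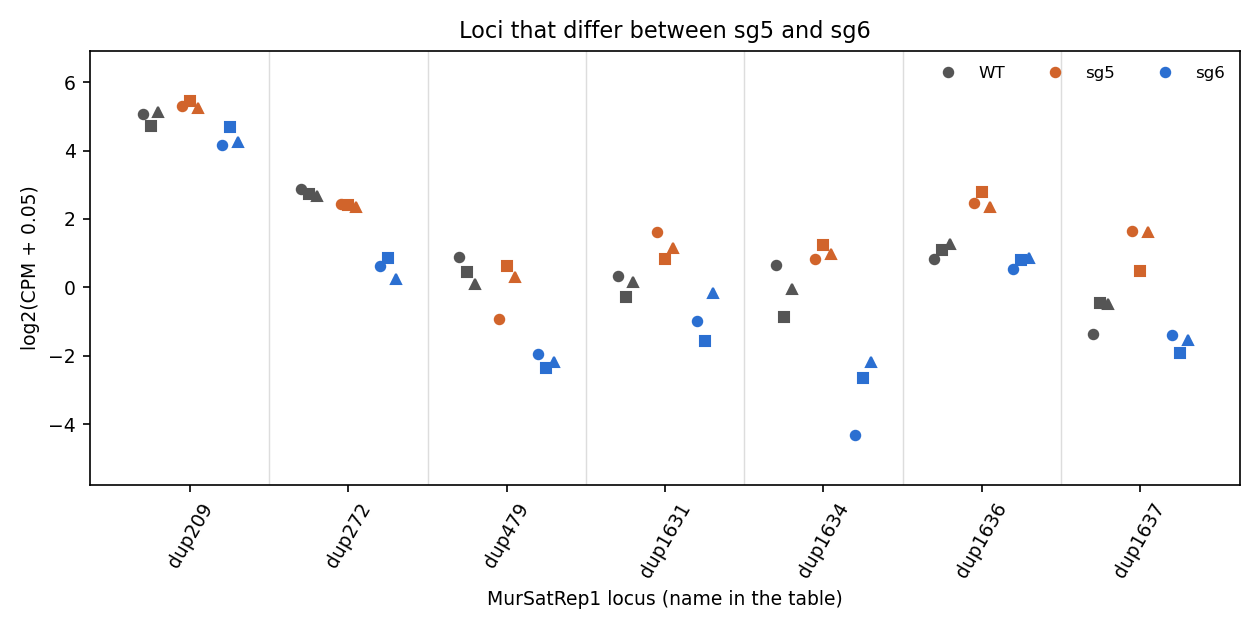
Level of the 7 loci called between the clones, in log2(CPM + 0.05), for each library of WT (grey), sg5 (orange) and sg6 (blue), with replicates 1, 2 and 3 as circle, square and triangle. All sg5 points lie above all sg6 points at each of the 7 loci, which were chosen by the test of this difference. Against WT, sg5 passed at dup1636 and dup1637 and sg6 at dup272, dup479 and dup1634.

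The most abundant locus of the family, dup209, measured 33.3, 26.4 and 34.7 CPM in WT, 39.3, 43.8 and 37.6 in sg5 and 18.0, 25.6 and 19.0 in sg6. The 3 groups did not overlap, with WT between the clones. Neither clone passed against WT (log2 fold change 0.35 ± 0.18, adjusted p = 0.329 in sg5 and -0.59 ± 0.18, adjusted p = 0.111 in sg6, edgeR). Between the clones the log2 fold change was 0.95 ± 0.18 (adjusted p = 0.0289, edgeR), and this call held in 3 of the 9 fits that left out a library.

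The other 11 of the 12 most abundant loci (dup291, dup171, dup163, dup698, dup177, dup151, dup157, dup215, dup220, dup2374 and dup307) passed in no comparison. At an unadjusted p below 0.05, 3 of the 12 passed in sg5 against WT, 1 in sg6 against WT and 4 between the clones, where the shares of all features were 16.9%, 12.6% and 7.98% (edgeR). With dup209, their log2 fold changes ran from 0.17 to 0.56 in sg5 against WT (lowest adjusted p = 0.105) and from -0.59 to 0.30 in sg6 against WT (lowest adjusted p = 0.111, edgeR). In sg5 against sg6, 11 of the 12 had a value above 0, and at 6 every sg5 library was above every sg6 library. Over all features, 27948 of 56086 had a value above 0, and 6.46% had every sg5 library above every sg6 library. For example, dup163 measured 14.2, 9.92 and 12.5 CPM in WT, 19.6, 17.9 and 16.5 in sg5 and 12.1, 11.3 and 11.2 in sg6.

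A WT library stood apart at dup157. WT replicates 1 and 2 measured 14.4 and 13.4 CPM while replicate 3 measured 3.8, against 10.7 to 13 in sg5 and 10.3 to 14.6 in sg6. WT replicate 3 is also the library with the largest share of repeat counts. Another of the abundant loci, dup2374, measured 9, 7.40 and 10.4 CPM in WT, 10.2, 10.3 and 9.95 in sg5 and 10.6, 8.45 and 8.54 in sg6, where all groups overlapped.

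Counts and calls were unevenly spread over the numbers in the locus names. Whether these numbers follow position in the genome is not given in the sources used here, so bins of 100 numbers are a description only. Numbers 100 to 199 held 19.7% of the family's counts and numbers 200 to 299 held 22.9%, with 26 and 31 tested loci. Of the 31 loci called in any comparison, 14 lie in these bins, 5 in the first and 9 in the second. No locus numbered 1100 to 1299 had a count. In contrast, numbers 2300 to 2399 held 12.8% of the counts with 27 tested loci, none of which was called in any comparison, with 1 at an unadjusted p below 0.05 in each (edgeR). The sum of these numbers was 81.6 ± 11.5 CPM in WT, against 86.1 ± 2.60 in sg5 and 78.4 ± 3.31 in sg6.

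The bins with calls differed in direction. Those named here were picked for their calls, and their sums include the called loci. Numbers 200 to 299 contained 6 loci lower in sg5 and 7 lower in sg6 and none higher against WT. Their sum was 170 ± 18.0 CPM in WT, against 157 ± 10.6 in sg5 and 107 ± 9.96 in sg6. Numbers 1600 to 1699, with 17 tested loci, contained 4 loci higher in sg5, 2 higher in sg6 and 1 lower in sg6. Their sum was 15.7 ± 0.448 CPM in WT, against 34.4 ± 4.18 in sg5 and 21.6 ± 1.20 in sg6. Numbers 1500 to 1599 and 1700 to 1799, with 11 and 10 tested loci, added 3 and 2 loci higher in sg5. Their sums were 9.84 ± 1.42 and 6.11 ± 2.33 CPM in WT, against 18.3 ± 1.91 and 11.6 ± 1.29 in sg5 and 14.1 ± 1.25 and 9.03 ± 0.945 in sg6.

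**Figure D5:**
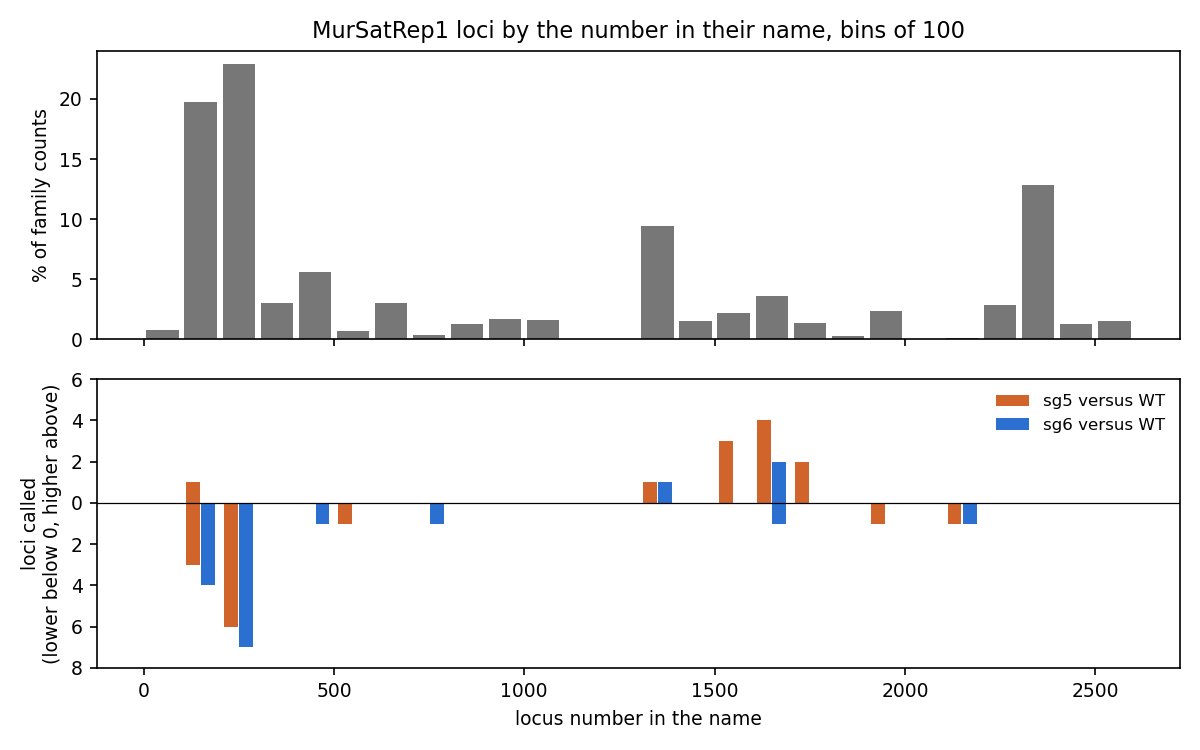
Share of MurSatRep1 counts (top, percent) and number of loci called against WT (bottom, higher above 0 and lower below 0) by the number in the locus name, in bins of 100, with sg5 in orange and sg6 in blue. Lower loci are most frequent at 200 to 299, with 6 in sg5 and 7 in sg6, and higher loci at 1600 to 1699, with 4 in sg5 and 2 in sg6.

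Of 19 genes that work with ATRX or on the same kind of chromatin, *Atrx* included, 4 passed in sg5 (2 higher and 2 lower) and 2 in sg6 (1 higher and 1 lower), where 10.7% and 7.58% of all genes tested passed. Between the clones none of the 19 passed in edgeR or DESeq2, with 2 at an unadjusted p below 0.05, where 1.57% of all genes passed in edgeR and 13.5% were at that unadjusted p. Besides *Atrx*, *Tasor*, which encodes the scaffold of the HUSH complex, passed in both clones, at 30.9 ± 2.32 CPM in WT, against 55.8 ± 5.53 in sg5 and 53.8 ± 3.25 in sg6 (log2 fold change 0.85 ± 0.14, adjusted p = 0.00352 and 0.80 ± 0.14, adjusted p = 0.00637, edgeR). *Mphosph8*, another HUSH subunit, and *Cbx1*, an HP1 protein, passed in sg5 alone. They changed by 1.19 ± 0.21 and -0.70 ± 0.14 on the log2 scale in sg5 (adjusted p = 0.00469 and 0.00965, edgeR). In sg6 the values had the same direction, 0.64 and -0.51 (adjusted p = 0.16 and 0.0695, edgeR). A difference between the clones was not shown for either gene (adjusted p = 0.478 and 0.781, edgeR). Both are named after their values were seen. For *Daxx*, the partner of ATRX, the levels were 13.1 ± 1.74 CPM in WT, against 13.1 ± 1.19 in sg5 and 12.3 ± 0.857 in sg6 (adjusted p = 0.99 and 0.908, edgeR).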

How the data were processed

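RNA of 9 rRNA-depleted libraries was used; the 9 polyA libraries list genes but no repeat locus and were not used here. The authors aligned reads with STAR (version 2.27.10a in the submitters' processing notes, which also name Salmon 0.8.2 and DESeq2), allowing up to 100 alignments per read, and deposited TElocal read counts of each gene and repeat locus (mm10), without normalization. The strand setting is not given in the sources used here. Groups and replicate numbers come from the labels.

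All genes and repeat loci were tested together with edgeR 4.0.16 (R 4.3.3): filterByExpr (minimum count 10, minimum total 15), TMM, and the quasi-likelihood test over 9 libraries and 3 groups, with a Benjamini-Hochberg adjusted p below 0.05 over 56086 features. CPM use TMM-scaled library sizes. Loci named with values are the called loci, up to 20 by lowest p, the 12 of highest mean CPM, and loci marked as added. A group at 0 was set to 3 counts per library, and ratios with 1 to 3 counts have exact 95% intervals; both cover counting error only. Gene symbols were matched for 24045 of 24100 gene IDs. The fit was tested on simulated data. Alternatives included DESeq2 1.42.0, other scalings and filters, a replicate block and leaving out each library; the sum per 1000000 repeat counts and without called loci were added after the data were seen. The members and lists were chosen with earlier results of these data known. Figures used matplotlib 3.10.9.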

Additional observations from a re-analysis of the deposited data

Results flagged for a closer look

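At 7 loci the change against WT differed between the 2 KO clones by a test of the difference itself, sg5 against sg6 in the edgeR fit with adjusted p below 0.05. On the log2 scale, the effect in sg5 minus the effect in sg6 was 4.36 at dup1634, 3.14 at dup1637, 2.57 at dup479, 2.13 at dup1631, 1.83 at dup272, 1.82 at dup1636 and 0.95 at dup209. The value was above 0 at all 7 loci and every sg5 library was above every sg6 library. These loci were chosen by that test, so the separation of their libraries adds no support to it. The calls at dup272, dup1634, dup1636 and dup1637 held in each of the 9 fits that left out a library, those at dup209 and dup1631 in 3 of 9 and that at dup479 in 1 of 9. Each sgRNA is represented by 1 clone, so a difference between the guides and a difference between the clones cannot be told apart.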

How the results depend on the processing

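The counts of called loci depended on the filter and on the number of libraries. With at least 10 counts in every library, a filter that removes loci that fell to near 0, 139 MurSatRep1 loci were tested. Of these, 6 were called in sg5, 5 in sg6, 3 between the clones and 2 in both clones. Of all 19555 features in that fit, genes included, 8.04% passed in sg5, 4.28% in sg6 and 0.798% between the clones. Against WT the family's share was then below that of all features, unlike over the 249 loci. Leaving out 1 library gave 12 to 24 called loci in sg5 and 11 to 19 in sg6. It gave 4 to 6 between the clones and 5 to 11 in both clones. The lowest in sg5 and in sg6 came without WT replicate 3, and the lowest in both clones without WT replicate 1. The lowest between the clones came without WT replicate 1 or sg5 replicate 3. In these fits 1.74% to 3.43% of all features passed in sg5, 1.28% to 3.20% in sg6 and 0.215% to 0.492% between the clones. Between the clones, DESeq2 called 12 loci, where 0.824% of all features passed, and no filter on low counts 14, where 0.0674% passed. A fit of only the groups compared called 4, where 0.367% passed. An adjusted p over repeat loci alone called 4, where 0.0701% of repeat loci passed, and left 6 loci in both clones. Of the heterochromatin genes, 2 passed in sg5 and 1 in sg6 with a log2 fold change beyond 1 as well, and 3 to 4 passed in sg5 and 1 to 2 in sg6 when a library was left out, with 1 in sg6 without WT replicate 2 or sg6 replicate 3. The summed level had log2 ratios of -0.044 (sg5) and -0.34 (sg6) in CPM of plain library totals, 0.21 (sg5 to WT) and 0.38 (sg5 to sg6) per 1000000 repeat counts, and -0.11 (sg6 to WT) and 0.22 (sg5 to sg6) without the called loci. With at least 3 counts, the mean number of loci detected was 399 in WT, 329 in sg5 and 324 in sg6, and thinning gave 447 in sg6. No value of a named locus changed sign when called. Where not stated, the cause was not tested.

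Replicate numbers were not taken to pair the libraries, as 4 of 9 same-number pairs had a correlation of deviations above 0.1. All 9 were above 0 (mean 0.121, against -0.060 for different numbers), and 5 of 9 libraries correlated best with their own number in both other groups. With the replicate number as a block, 30 loci were called in sg5, 17 in sg6 and 6 between the clones, and the calls over all features rose from 2176 to 3731, 1623 to 2509 and 275 to 468. The filter on low counts left 643 loci with counts untested. Without it all 892 were tested, and 29 were called in sg5 and 27 in sg6, where 0.292% and 0.238% of 947507 features passed. These include 17 of the 23 sg5 calls and 16 of the 18 sg6 calls made with the filter.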
